A study of Mus musculus with 2 samples.

Results

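A set of 807 endothelial cells (ECs) of the normal mammary gland was chosen by a small group of genes and is described here. The group included the transcription factors Meis2 and Foxf1 and the stretch-gated ion channel Piezo2. The cells were taken from a single-cell RNA-sequencing library of normal ECs (NECs). An EC was any cell with at least 200 genes, under 10% mitochondrial UMIs, no UMI of Ptprc, Myh11, Epcam or Cspg4, and at least 1 UMI of Cdh5 or Pecam1. A UMI is a molecular tag that counts 1 captured RNA molecule. Gated cells were chosen by the detection of at least 3 of the 7 genes Meis2, Plscr2, Tbxa2r, Piezo2, Foxf1, Zfp503 and Nostrin, and so by measured UMIs. They were 807 of the 4940 ECs among 9047 NEC barcodes. The series holds 9751 barcodes in all.

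Both libraries were made from cells sorted as CD45-/CD31+, after mechanical and collagenase digestion of pooled tissue. The NEC library came from normal mammary glands, and its labels give the C57BL/6 strain and an age of 6-8 weeks. The other library held tumor endothelial cells (TECs) from orthotopically implanted E0771 mammary tumors, and its labels give neither strain nor age. No treatment or engineered allele is given for either library. The NEC library is titled as normal ECs and the deposited design names normal glands, although its tissue label reads E0771 mammary and its cell type label names TECs. It was read as normal here. Each condition had 1 library, so no test was made. The 95% intervals given with shares (Clopper-Pearson), levels (Poisson) and ratios (conditional binomial) cover counting error only. Cells of 1 library are not replicates.

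Microvessels differ between organs and along the vascular tree. Fenestrated and other highly permeable capillaries carry the diaphragm protein Plvap, whereas continuous capillaries of fat and muscle take up fatty acids through Cd36, Gpihbp1, Lpl and Fabp4, and the tight-junction claudin Cldn5 is a marker of tight endothelium. Foxf1 is a forkhead factor known from lung and other visceral vessels, and Meis2 is a homeobox cofactor of Hox and Pbx proteins. Piezo2 senses mechanical force in sensory neurons and other cells, Tbxa2r is the receptor for thromboxane, Nostrin binds endothelial nitric oxide synthase and promotes its traffic away from the membrane, Plscr2 belongs to the phospholipid scramblase family, and Zfp503 is a zinc finger repressor.

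NEC barcodes held between 500 and 327449 UMIs, with a median of 2973, and 6924 barcodes met the gene and mitochondrial criteria. Removal of cells with a UMI of a filter gene left 5200 cells, of which 4940 were ECs. The TEC library had 704 barcodes and 312 ECs, and 3 barcode sequences were present in both libraries. Gated cells were deeper than the other 4133 NEC ECs, with medians of 3949 and 2762 UMIs and of 1801 and 1390 genes per cell. Their median mitochondrial share was 2.72%, against 3.91% in the other ECs. The doublet caller Scrublet marked 0 of 6924 cells, so it had failed here, and doublets were not removed.

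The endothelial label held for the gated cells. Both Cdh5 and Pecam1, the genes of the rule, were detected in 87.4% of gated cells and 81.0% of other ECs. Of 15 pan-endothelial genes that the rule did not use, 13 were within 2-fold of the other ECs. Flt1, a VEGF receptor, was detected in 99.5% of gated cells, Egfl7 in 99.1% and Esam in 89.1%. Emcn and Cldn5 were the other two. The label was less exact for single genes, since a cell could enter without any one of them. Meis2 was detected in 369 of the 807 gated cells (45.7%), Foxf1 in 250 (31.0%) and Piezo2 in 512 (63.4%). Only 60 gated cells (7.43%) held all of these, and 76 (9.42%) held none of them.

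The 7 genes chose the cells, and their levels are therefore a description. Plscr2 was the most widely detected, in 92.8% of gated cells and 29.3% of other ECs, at 751 and 180.1 CPM, the UMIs of a gene scaled to a total of 1000000 UMIs. Nostrin was at 228 and 26.9 CPM, and was detected in 66.8% and 6.46% of cells. Piezo2 was at 211 and 25.7 CPM, Meis2 at 187 and 12.9 CPM, Zfp503 at 138 and 16.6 CPM, Tbxa2r at 98.1 and 16.2 CPM, and Foxf1 at 80.2 and 8.23 CPM. The genes lie on different chromosomes of GRCm38, apart from Meis2 (chr2:115863064-116065839, minus strand) and Nostrin (chr2:69135800-69189330, plus strand), and Foxf1 is at chr8:121084386-121088144 on the plus strand. The gated cells showed 81 different combinations of the genes. The most frequent, Plscr2 with Piezo2 and Nostrin and no other, was found in 71 cells (8.80%). Of the gated cells 394 had exactly 3 of the genes, 239 had 4, 124 had 5, 45 had 6 and 5 had all 7. The 592 ECs just outside the gate, with 2 genes, had a median depth of 3707.5 UMIs, close to the 3741.5 UMIs of cells with exactly 3.

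To describe each gene in cells that it had not chosen, it was held out and ECs with at least 3 of the other 6 genes were set against the remaining ECs. Meis2 was then at 157 CPM (144 to 171) in 699 cells and 26.4 CPM (23.8 to 29.3) in 4241 cells, with a log2 ratio of 2.57 (2.38 to 2.77). The log2 ratio was 2.12 (1.84 to 2.40) for Foxf1, 2.07 (1.87 to 2.28) for Zfp503, 2.05 (1.89 to 2.21) for Nostrin, 1.90 (1.74 to 2.07) for Piezo2, 1.63 (1.55 to 1.71) for Plscr2 and 1.26 (1.02 to 1.51) for Tbxa2r. Each of the 7 genes was thus more than 2-fold higher in the cells marked by the other 6. The 7 genes had been proposed together from these cells, so this describes how they were detected together and is not independent evidence.

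**Figure D1:**
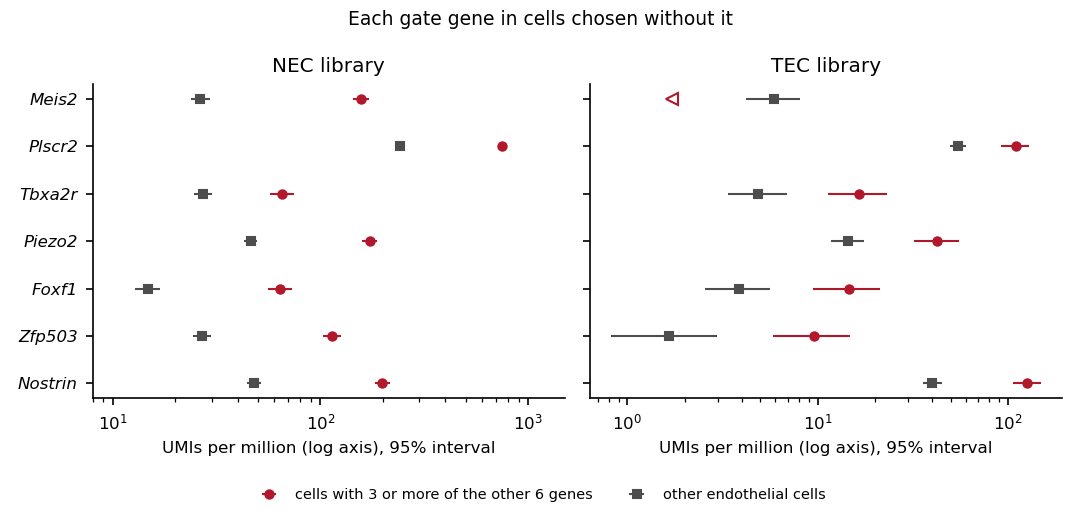
Level of each gate gene in CPM (log axis, with 95% counting intervals) in cells with at least 3 of the other 6 genes (red circles) and in the other ECs (grey squares), for the NEC library (left) and the TEC library (right). All 7 genes sit higher in the red cells of the NEC library, while Meis2 had no UMI in those of the TEC library, where the open triangle marks the upper limit of the interval.

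A gate that asks for 3 detected genes is met more often by deep cells. The share of gated cells was 1.98% (0.647 to 4.57) among ECs of 500 to 1000 UMIs, 11.7% (9.95 to 13.5) from 2000 to 3000 UMIs, 26.9% (23.8 to 30.3) from 5000 to 10000 UMIs and 46.2% (36.3 to 56.2) above that. For a comparison at 1 depth, 1900 UMIs were drawn at random from each EC, which left out 1109 ECs with fewer. Of the 3831 thinned NEC ECs, 353 met the gate (9.21%, 8.32 to 10.2), compared with 807 of 4940 (16.3%, 15.3 to 17.4) with all UMIs. All 353 were gated cells at full depth, and they were 45.4% of the 777 gated cells that were deep enough to thin.

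Free RNA can place UMIs in cells that do not express a gene. Cells with an Epcam UMI and neither Cdh5 nor Pecam1, read here as epithelial, had a median of 10806 UMIs, and 15 of 698 met the gate (2.15%, 1.21 to 3.52). Gated cells were chosen by these genes, so the ungated ECs are the reference here. Nostrin was detected in 2.29% of the epithelial cells, Foxf1 in 1.58% and Tbxa2r in 0.287%. In ungated ECs, which were shallower, the shares were 6.46%, 2.06% and 4.14%, so that of Foxf1 was close. Piezo2 went the other way. It was detected in 48.4% of the epithelial cells, at 147 CPM, compared with 25.7 CPM in the ungated ECs. Zfp503 was detected in 20.6% of the epithelial cells, Plscr2 in 13.6% and Meis2 in 10.2%, beside 4.45%, 29.3% and 2.59% of ungated ECs. Their levels were 21.1, 16.9 and 35.4 CPM in the epithelial cells and 16.6, 180 and 12.9 CPM in the ungated ECs. The part of epithelial RNA in the Piezo2 UMIs of gated cells was not tested.

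ECs were clustered without the gate, filter and EC genes. The gate genes had been chosen with earlier clusters of the same cells in view, so the place of gated cells among clusters is a description. Of 17 clusters, 2 held 602 of the 807 gated cells (74.6%, 71.4 to 77.6). In one, with 525 cells, 60.2% (55.9 to 64.4) met the gate. Its leading genes included Ifi207, Ier3, Ifi204, Rnd1 and Rel. In the other, with 493 cells, 58.0% (53.5 to 62.4) met the gate, and the leading genes included Ramp3, Jam3, Lpcat1, Plpp1 and Hlx. After thinning, the shares were 30.0% and 42.7%. The cluster led by Glycam1 followed with 29 of 92 cells (31.5%, 11.9% after thinning), then a small cluster led by Fst and the collagen genes Col1a2 and Col1a1 with 12 of 47 cells (25.5%, 2.33% after thinning), and the clusters with Penk and Pacsin1 among their leading genes had 23.8% and 19.6% (5.39% and 4.63% after thinning). The large clusters led by Car8, Timp4 and Lpl (755 cells) and by Gpr160, Chchd10 and Cldn15 (690 cells) had 0.132% and 0.725%, and the cluster led by the arterial gap junction gene Gja5 (451 cells) had 1.11%. Most gated cells thus lay in 2 clusters, and 205 gated cells were scattered over other clusters with a median of 6246 UMIs.

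**Figure D2:**
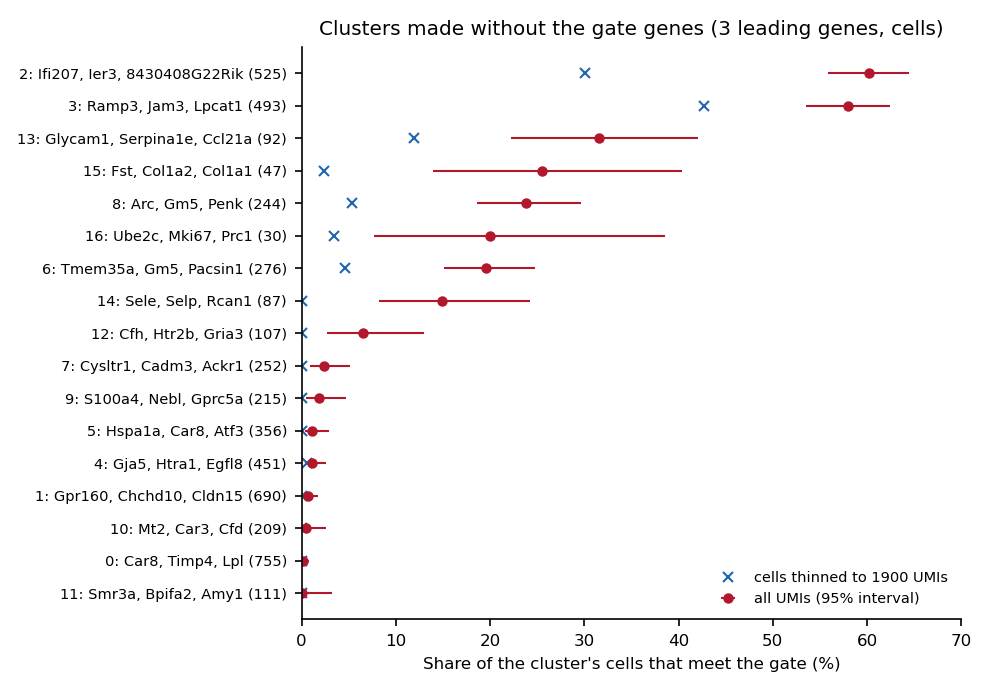
Share of each NEC cluster that met the gate (percent), with all UMIs (red circles, 95% intervals) and after thinning to 1900 UMIs (blue crosses). Clusters are named by number, their 3 leading genes and their number of cells, and 2 clusters at 60.2% and 58.0% stand above the others, the next being at 31.5%.

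Genes outside the gate were then compared between all 807 gated cells and the 4133 other ECs. A gene was counted when it had at least 10 CPM in either set and 20 UMIs in both together, and called when its level differed at least 2-fold with an interval that excluded 1. Of 8550 genes counted, 171 (2.00%) were called higher and 346 (4.05%) lower in gated cells, around a median log2 ratio of -0.04. Because the 7 gate genes were chosen with earlier clusters of the same cells in view, all these ratios are a description of the cells. The higher genes changed more than the lower ones when the gate was applied to thinned cells, which also left fewer gated cells. With that gate, 102 of the 171 higher genes were still at least 2-fold higher and 35 had the opposite sign. Of the 346 lower genes, 306 were at least 2-fold lower and 0 had the opposite sign. These counts include genes with no UMI in a set of cells, 9 of the higher and 37 of the lower. With the gated cells kept and only their UMIs thinned, 142 of the higher and 318 of the lower genes remained at least 2-fold different. Of the 171 higher genes, 95 were detected in at least 10% of gated cells.

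The 602 gated cells of both main clusters were joined there by 416 ECs that did not meet the gate and were shallower, with a median of 2821.5 UMIs. Between the gated and the ungated cells of these clusters, which were made from genes outside the gate, 68 of 8226 genes (0.827%) were called higher and 79 (0.960%) lower in gated cells. Brip1 was among the former, at 35.8 and 16.4 CPM, and Tppp3 among the latter, at 7.57 and 16.4 CPM. Ramp3 was at 320.4 CPM in the ungated cells, and at 345 and 445 CPM in the gated cells of the Ier3 and the Jam3 cluster. Plvap was at 3237 CPM, between 2923 and 3942 CPM. Timp4 was at 31.2 CPM in the ungated cells and 26.5 CPM in the gated cells of both clusters together, where 54 of its 63 UMIs were in the Ier3 cluster. Between the gated cells of the Ier3 and the Jam3 cluster, 431 of 8190 genes (5.26%) were called higher in the Ier3 cluster and 366 (4.47%) lower, and such genes had defined the clusters. The sum of 10 immediate early genes was 18869 CPM in gated cells of the Ier3 cluster and 10863 CPM in those of the Jam3 cluster, the sum of 15 interferon genes was 5233 and 3355 CPM, and Ier3 itself was at 7881 and 1058 CPM. Members of the immediate early list differed among themselves. Atf3 was at 1343 and 238 CPM, Jun at 3378 and 3532 CPM, and the heat shock gene Hspa1a at 388 and 939.8 CPM.

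Among the 30 genes with the highest ratio, a first group was spread over many gated cells. Ramp3, which directs the calcitonin receptor-like receptor towards adrenomedullin and lies at chr11:6658521-6677475 (GRCm38, plus strand), was at 278 CPM (262 to 295) in gated cells and 66.0 CPM (61.7 to 70.5) in other ECs, with a log2 ratio of 2.08 (1.95 to 2.21). Its UMIs were found in 66.3% of gated cells and 13.5% of other ECs (45.0% and 9.86% after thinning). Over whole clusters, Ramp3 was at 325 and 420 CPM in the Ier3 and Jam3 clusters. The clusters with Penk and Pacsin1 among their leading genes had it at 236 and 138 CPM, so it was not particular to the gated cells. Ces2e, a carboxylesterase, was at 166 CPM (153 to 179) and 37.9 CPM (34.6 to 41.3), and was detected in 47.5% and 8.06% of cells. These were the most widely detected genes of the group.

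Other leading genes were at lower levels and in fewer cells, from 5.82% of gated cells for Tox3 to 22.2% for Proser2. Enpep, the aminopeptidase A that cleaves angiotensin II, was at 51.7 and 10.3 CPM (log2 ratio 2.32, 2.01 to 2.65) and was detected in 17.7% and 2.32% of cells. Proser2 was detected in 22.2% and 3.39% of cells, and Hlf, a circadian-output transcription factor, in 17.1% and 2.88%. Col4a3, a collagen IV chain, had a log2 ratio of 2.40 (1.89 to 2.93), at 20.9 and 3.97 CPM. Transcriptional regulators in the group were Id4 (48.4 and 13.4 CPM), the ETS factor Etv5 (23.2 and 6.44 CPM) and Tox3 (12.6 and 3.52 CPM). Tmem26, Cpxm2, Ralgps2 and Brip1 had log2 ratios of 2.72, 2.65, 2.59 and 2.56, and were detected in 7.43 to 14.9% of gated cells. Olfr1396, Lrp3, Ripor2, Grin2a, Ifi207, C1qtnf2 and Mfap2 completed the group, with log2 ratios from 1.87 to 2.44. Some of these were uneven between the main clusters. Ifi207 had 142 of its 194 gated UMIs in the Ier3 cluster, and C1qtnf2 was at 13.8 CPM in gated cells there and 37.0 CPM in those of the Jam3 cluster.

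A second group among the 30 rested on few cells. Glycam1, the mucin ligand of L-selectin that marks high endothelial venules, was at 15467 CPM in gated cells and 3698 CPM in other ECs, but 10 cells held 95.9% of its UMIs in gated cells. With the gate applied to thinned cells, its log2 ratio was -3.60. Ubd, at 378 and 91.4 CPM, also turned, to -3.41, and Serpina1b and Oit1 to -1.51 and -1.65. Ccl11 UMIs came from 2 gated cells, Slc38a4 UMIs from 5 and Lgals7 UMIs from 8. Serpina1e, Bpifb5 and Ggt5 had at least 91.7% of their UMIs in 10 gated cells. The ratios of these genes describe a few cells inside the gate, and not the gated cells in general.

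**Figure D3:**
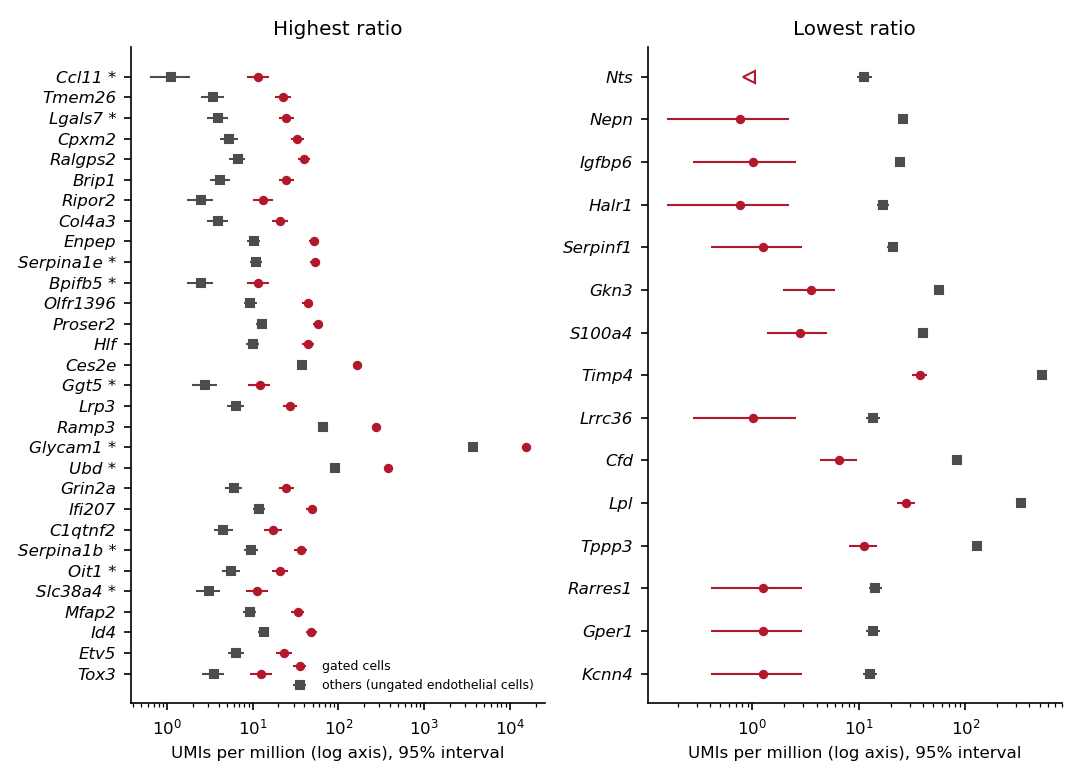
Levels in CPM (log axis, 95% intervals) of the 30 genes with the highest ratio (left) and the 15 with the lowest ratio (right), in gated cells (red circles) and other ECs (grey squares). An asterisk marks genes with more than 80% of their gated-cell UMIs in 10 cells, and the open triangle is the upper limit for Nts, with no UMI in gated cells.

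RefSeq promoters (250 bases before to 50 after the start, GRCm38.p6) were matched for 125 of the 171 genes called higher and 254 of the 346 called lower. The forkhead core letters TAAACA, or TGTTTA on the other strand, were searched because Foxf1 is a gate gene. They were found in 28 promoters of genes called higher (22.4%, 15.4 to 30.7), 34 of those called lower (13.4%, 9.45 to 18.2), 10.0% of all counted genes matched and 15.1% of 27025 genes with a promoter. A match of letters is not a binding site. The genes called higher with the letters include Serpina1e, Oit1 and Slc38a4, whose UMIs rested on few gated cells. Stretches are shown from the promoters of Esm1, Etv5 and Ripor2, which were detected in 51.9%, 10.2% and 6.20% of gated cells. The letters are in capitals.
Esm1 (chr13:113209533-113209592, plus strand, 99 bases before the start): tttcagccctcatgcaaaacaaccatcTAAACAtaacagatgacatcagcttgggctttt
Etv5 (chr16:22439720-22439779, minus strand, 182 bases before the start): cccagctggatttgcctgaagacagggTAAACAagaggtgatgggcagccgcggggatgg
Ripor2 (chr13:24582095-24582154, plus strand, 67 bases before the start): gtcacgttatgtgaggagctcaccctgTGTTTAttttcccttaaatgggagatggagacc
The Meis core TGACAG, or CTGTCA on the other strand, was found in 13.6% (8.13 to 20.9) of promoters of genes called higher, 20.9% of those called lower and 19.0% of those counted.

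The 15 genes with the lowest ratio included widely detected genes of other ECs. Timp4, a metalloproteinase inhibitor, was at 37.3 CPM (31.6 to 43.9) in gated cells and 526 CPM (513 to 538) in other ECs, with a log2 ratio of -3.82 (-4.06 to -3.58). Gated cells carried it in 7.68% of cases and other ECs in 43.1%. Lpl, the lipase that releases fatty acids from lipoproteins, was at 27.8 and 334 CPM, and was detected in 6.44% and 40.5% of cells. Tppp3 was at 11.1 and 129 CPM, Gkn3 at 3.53 and 56.6 CPM, and S100a4 at 2.78 and 39.7 CPM. Nepn (0.757 and 26.2 CPM) was detected in 2 gated cells and 250 other ECs. Halr1, a noncoding RNA beside the HoxA genes, was at 0.757 and 16.8 CPM. Nts, which encodes neurotensin, had 0 UMIs in gated cells, which allows up to 0.931 CPM, and 150 UMIs in other ECs (11.2 CPM), but 25 of the other ECs held all of these. Igfbp6 UMIs were likewise in 25 other ECs and 4 gated cells (0.605% and 0.496%). Igfbp6, Serpinf1, Lrrc36, Cfd, Rarres1, Gper1 and Kcnn4 made up the 15, with log2 ratios from -4.59 to -3.34.

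Lists of vessel type markers were then counted, and each can be read against the 2.00% and 4.05% of genes called overall. Of 8 genes of fenestrated and permeable endothelium, 4 were called higher and none lower, and their median log2 ratio was 0.93. Plvap was at 3264 CPM (3208 to 3321) in gated cells and 1547 CPM (1526 to 1569) in other ECs, and was detected in 99.0% and 45.9% of cells (97.9% and 47.1% after thinning). Emcn, a sialomucin of capillaries and veins, was at 2086 and 921 CPM, Igfbp3 at 649 and 275 CPM, and Esm1, a VEGF-induced proteoglycan, at 599.7 and 202 CPM. The VEGF receptors Kdr and Flt1, with log2 ratios of 0.77 and 0.75, and Nrp1, with 0.65, did not reach 2-fold. The higher level of fenestrated genes was not particular to the gated cells. Over whole clusters, the fenestrated list was at 15835 and 12072 CPM in the clusters with Penk and Pacsin1 among their leading genes. It was at 13142 and 17148 CPM in the Ier3 and Jam3 clusters. Esm1 was at 1157 and 854 CPM in the former and 489 and 836 CPM in the latter.

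Many continuous capillary and arterial genes were lower. Of 16 capillary genes, 10 were called lower and none higher, with a median log2 ratio of -1.79. Of 11 genes of fatty acid handling, some of which are in both lists, 9 were called lower. Fabp4, a fatty acid chaperone, was at 7559 CPM (7474 to 7645) in gated cells and 24728 CPM (24644 to 24813) in other ECs, although it was detected in 98.1% and 98.7% of them. The fatty acid translocase Cd36 was at 648 and 2369 CPM, the water and glycerol channels Aqp1 and Aqp7 at 389 and 1894 CPM and at 23.2 and 181 CPM, and the lipase carrier Gpihbp1 at 647 and 1377 CPM. Other capillary genes lay on the higher side without reaching 2-fold, among them Rgcc (log2 ratio 0.74), Btnl9 (0.69), Sgk1 (0.32) and Car4 (0.24). Of 15 arterial genes, 9 were called lower and none higher. Gja5 was at 3.78 and 33.2 CPM, Bmx at 2.78 and 23.7 CPM, Fbln5 at 33.6 and 303 CPM, and Sema3g at 23.2 and 126 CPM. Of 12 venous genes, 4 were called lower, among them Vwf at 45.7 and 274 CPM and Ackr1 at 47.7 and 115 CPM. Cldn5 was at 127 CPM (117 to 139) in gated cells and 1042 CPM (1025 to 1060) in other ECs, and was detected in 15.1% and 55.6% of cells. The clusters with Penk and Pacsin1 shared the low capillary and Cldn5 levels. Over whole clusters, the capillary list was at 15891 and 13462.5 CPM there, and at 12981 and 14914 CPM in the Ier3 and Jam3 clusters. Cldn5 was at 65.7 and 39.0 CPM in the former and 122 and 41.4 CPM in the latter.

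**Figure D4:**
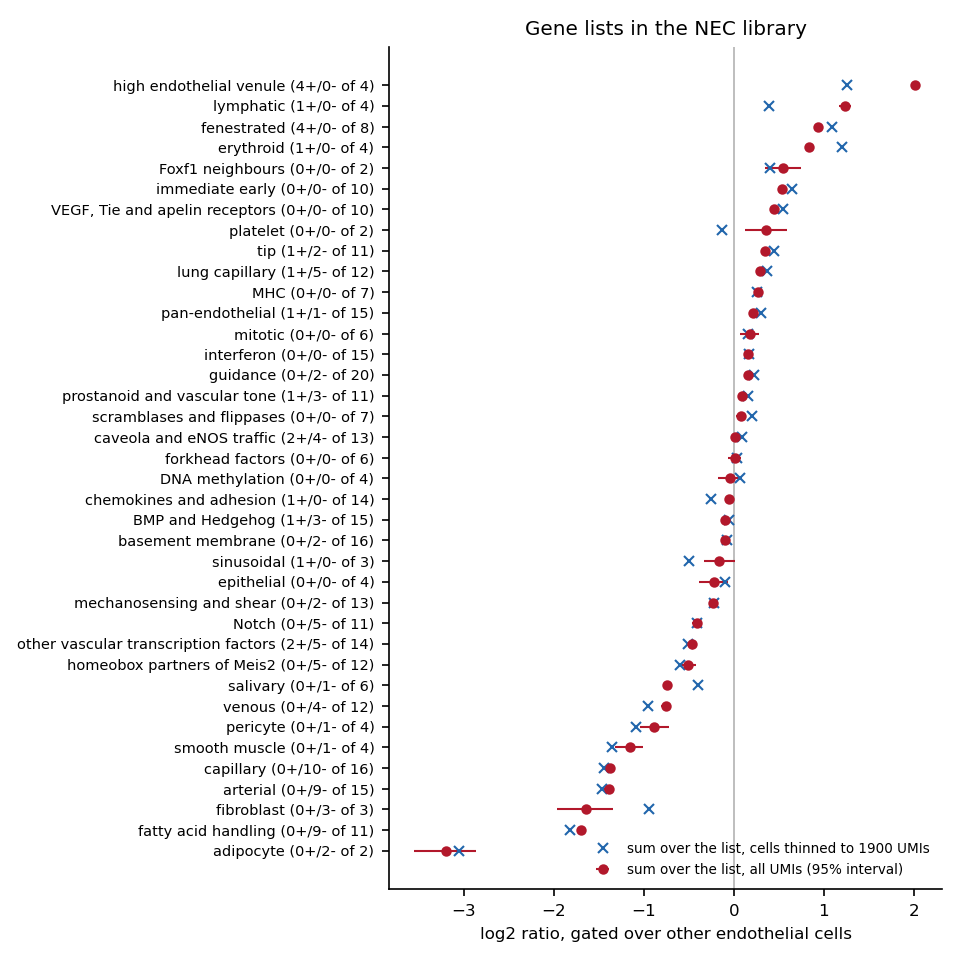
Log2 ratio of the summed UMIs of each gene list, gated over other ECs of the NEC library, with all UMIs (red circles, 95% intervals) and with cells thinned to 1900 UMIs (blue crosses). Brackets give the genes called higher (+) and lower (-) of those counted, and the arterial, capillary and fatty acid lists lie between -1.70 and -1.38, with the fenestrated list at 0.93.

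Of 4 counted genes of high endothelial venules, all were called higher, and the list sum was 16319 and 4030 CPM. This sum followed the Glycam1 cluster. In gated cells of both main clusters, the list was at 206 and 207 CPM, and in the 205 gated cells elsewhere at 40441 CPM. Its log2 ratio of 2.02 was -3.01 with the gate on thinned cells. The lymphatic list (log2 ratio 1.24) had 1 of 4 genes called, Ccl21a, which is in both lists, and turned to -0.74 with the gate on thinned cells. Of 12 lung capillary genes, 1 was called higher and 5 lower, with Plvap as the former, and Tmem100 at 2.52 and 11.9 CPM. Of 11 tip cell genes, Esm1 was called higher, while Apln and Cxcr4 were called lower. Of 3 sinusoidal genes counted, the transcription factor Maf was called higher (28.8 and 12.1 CPM).

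Around Foxf1 and Meis2, related factors did not move as a family. Of 6 other forkhead genes, none was called, with a median log2 ratio of 0.02, and Foxo1 was at 126.9 and 99.9 CPM. Of the genes beside Foxf1, Irf8 was at 51.5 and 31.8 CPM, a log2 ratio of 0.69 (0.45 to 0.94). The TALE homeobox genes Pbx2, Pbx3 and Pknox1 had log2 ratios from -0.04 to 0.24. Hox genes set position along the body axis. Of 12 homeobox genes counted, 5 were called lower and none higher, and all of these were Hox genes. Hoxa5 was at 11.9 and 31.4 CPM, Hoxa7 at 21.7 and 56.6 CPM, Hoxb2 at 13.4 and 28.0 CPM, Hoxb5 at 7.57 and 20.8 CPM, and Hoxb7 at 17.2 and 47.4 CPM. Hoxb4 and Hoxd8 were not called, with log2 ratios of -0.71 (-0.99 to -0.43) and -0.17 (-0.40 to 0.05). Among 14 other vascular transcription factors, 2 were called higher and 5 lower. The homeobox paralogs Meox1 and Meox2 went opposite ways. Meox1 was at 165 CPM (153 to 178) and 68.0 CPM (63.7 to 72.6), whereas Meox2 was at 26.2 CPM (21.4 to 31.8) and 163 CPM (156 to 170.0). Tcf15, the partner of Meox2 in fatty acid uptake, was at 123 and 467 CPM, and Sox11 at 17.4 and 8.01 CPM.

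Around Tbxa2r and Nostrin, genes of vascular tone divided. Of 11 counted genes, Ptgs1, the cyclooxygenase upstream of thromboxane and prostacyclin, was the gene called higher, at 208 and 101 CPM, and it was detected in 56.1% and 19.6% of cells. Nos3, the nitric oxide synthase that Nostrin binds, was called lower at 38.9 and 90.8 CPM, as were the vasoconstrictor Edn1 at 31.0 and 103 CPM and the nitric oxide receptor subunit Gucy1a1 at 6.31 and 13.0 CPM. Calcrl, the receptor that Ramp3 serves, was at 222 and 144 CPM, a log2 ratio of 0.63. In the caveola and Nos3 traffic list, 2 of 13 genes were called higher and 4 lower. Cav1, the main caveolin of ECs, was at 550.3 and 1324 CPM, Cavin1 at 275 and 767 CPM, and Ehd2, which holds caveolae at the membrane, at 147 and 381 CPM. Ehd4, a paralog of Ehd2 in endosomal traffic, was at 1461 and 688 CPM, and was detected in 96.7% and 44.3% of cells.

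Around Piezo2 and Plscr2, no gene of the mechanosensing or scramblase lists was called higher. Of 13 mechanosensing and shear genes, Trpv4 (10.1 and 21.3 CPM) and Cyth1 (39.4 and 82.5 CPM) were called lower and none higher. Piezo1, the Piezo channel best known in endothelium, had a log2 ratio of -0.55 (-0.76 to -0.35), and the shear-induced factors Klf2 and Klf4 had -0.37 and -0.24. The scramblase and flippase list had none of 7 genes called, and Plscr1 had the highest ratio of them, at 164 and 91.2 CPM (log2 ratio 0.85, 0.71 to 0.99). In the BMP and Hedgehog list, Bmp2 was called higher (37.1 and 17.4 CPM), and Bmp4 (2.52 and 13.2 CPM), Bmp6 (13.1 and 70.7 CPM) and Tmem100 lower. Bmp2 was detected in only 3.72% of gated cells and 1.79% of other ECs, and in 1.42% and 1.38% after thinning. Of 11 Notch genes, 5 were called lower, namely Dll1, Jag1, Jag2, Hey1 and Nrarp, with log2 ratios from -1.33 to -1.01.

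In other programs, the list sums differed by less than 2-fold, although single genes of some lists were called. None of 10 VEGF, Tie and apelin receptor genes, 15 interferon genes, 7 MHC genes, 4 DNA methylation genes, 6 mitotic genes or 10 immediate early genes was called. The immediate early sum was 13309 and 9202 CPM, a log2 ratio of 0.53, and the heat shock genes Hspa1a and Hspa1b in that list had 0.55 and 0.48. Of 14 chemokine and adhesion genes, Cxcl1 was called higher (263 and 102 CPM). Cxcl1 was uneven among gated cells, at 233 CPM in those of the Ier3 cluster and 18.0 CPM in those of the Jam3 cluster. These held 321 and 18 of its 1044 gated UMIs. Of 16 basement membrane genes, Col18a1 (17.7 and 51.9 CPM) and Col8a1 (7.57 and 66.4 CPM) were called lower, and of 20 guidance genes Sema3g and Ntn1.

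Of the marker lists of other cell types, most had lower sums in the gated cells. The sums in gated and other ECs were 92.3 and 170.2 CPM for 7 pericyte genes, 97.9 and 218 CPM for 7 smooth muscle genes, 23.7 and 74.2 CPM for 6 fibroblast genes, 18.7 and 171 CPM for 6 adipocyte genes, and 103 and 121 CPM for 8 epithelial genes. Of the adipocyte genes, Cfd was at 6.56 and 83.8 CPM and Car3 at 9.59 and 70.3 CPM, in the same direction as the fatty acid genes of ECs, and their part in that result was not tested. The immune list, with Cd3e at 0 in gated cells, was at 10.3 and 10.6 CPM, the milk protein list at 7.57 and 11.6 CPM, the Schwann list, with Sox10 at 0 in gated cells, at 1.01 and 2.84 CPM and the platelet list at 53.0 and 41.3 CPM. Of 9 salivary gland genes listed, 1 had no UMI in gated cells, and the sum was 1439 and 2400 CPM. Within gated cells it was 1702 and 2129 CPM in the Ier3 and Jam3 clusters and 777 CPM elsewhere. The sum of 5 erythroid genes was higher, at 3632 and 2035 CPM, with 1 of 4 counted genes called higher. In gated cells this sum was 4816 and 7664 CPM in the main clusters and 66.1 CPM elsewhere. The parts of salivary and erythroid RNA in the other results were not tested.

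The number of gate genes went with the other genes in steps. In cells thinned to 1900 UMIs, Ramp3 was at 38.8 CPM in 2102 cells with no gate gene, 108 CPM in 909 cells with 1, 316 CPM in 467 cells with 2, 376 CPM in 231 cells with 3, 415 CPM in 90 cells with 4, and 559 CPM in 32 cells with 5 or more. Ces2e was at 71.8 CPM with 1 gate gene and 296 CPM with 5 or more, and Meox1 at 95.5 and 247 CPM. Esm1 was at 95.4 CPM with no gate gene, 777 CPM with 2, 602 CPM with 3 and 789 CPM with 5 or more, with no steady climb beyond 2 genes. Timp4 was at 733 CPM with no gate gene, 323 CPM with 1, 90.2 CPM with 2 and 25.1 CPM with 3, and no UMI was found in cells with 5 or more. Lpl went from 449 CPM to 31.9 CPM between none and 3 genes, and Cldn5 from 1308 CPM to 29.6 CPM. Cells with 2 gate genes, which the gate leaves among the other ECs, were closer to the gated cells than to cells with none for Ramp3, Esm1, Timp4, Lpl and Cldn5.

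**Figure D5:**
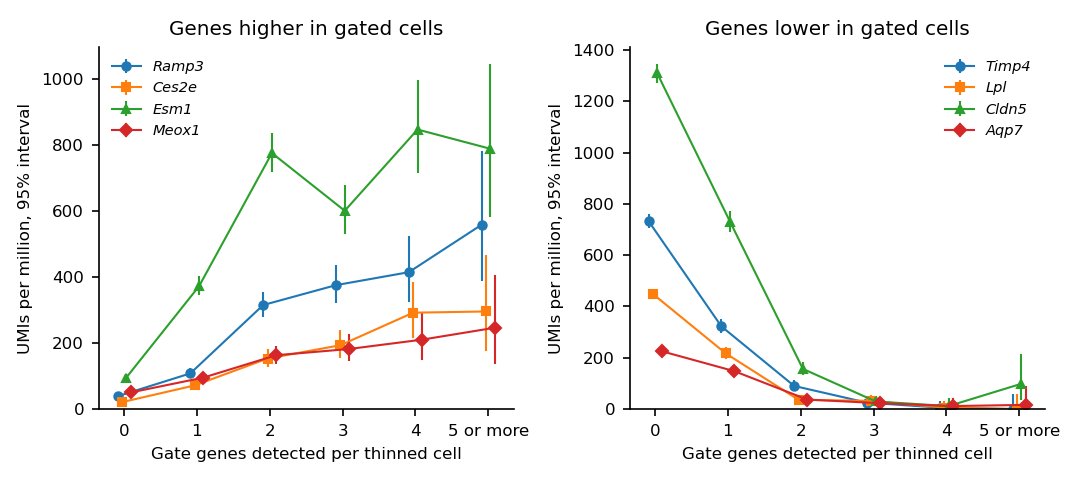
Levels in CPM (95% intervals) by the number of gate genes detected per cell, in NEC ECs thinned to 1900 UMIs. Ramp3, Ces2e, Esm1 and Meox1 (left) are higher from 2 gate genes on, and Timp4, Lpl, Cldn5 and Aqp7 (right) are at most 31.9 CPM from 3 gate genes on, except Cldn5 at 98.7 CPM in the 32 cells with 5 or more.

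Few gated cells carried the gene pairs of other vessel types. Gja5 and Bmx were detected together in 0.248% of gated cells and 2.11% of other ECs, Alpl and Tgfb2 in 1.86% and 2.83%, and Lbp and Ackr1 in 0.991% and 2.88%. Car8 and Timp4 were found together in 1.49% and 10.9%, and Aqp7 and Cldn15 in 0.867% and 7.57%. Penk and Pacsin1 were more frequent in gated cells, at 5.33% (3.88 to 7.11) and 1.91% (1.52 to 2.38), but at 1.80% and 1.31% after thinning. The Glycam1 cluster genes Chst4 and Fut7 were found together in 8 gated cells (0.991%) and 12 other ECs (0.290%).

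In the TEC library, 84 of 312 ECs met the gate (26.9%, 22.1 to 32.2), but its cells were far deeper, with a median of 25156 UMIs in gated cells and 16742 UMIs in the others. After thinning, 1 of 289 TECs met the gate (0.346%, 0.00876 to 1.91), compared with 9.21% of NECs. Held out 1 at a time, Foxf1, Piezo2, Nostrin, Tbxa2r, Zfp503 and Plscr2 had log2 ratios from 1.00 to 2.53 in TECs. The pan-endothelial list itself had a log2 ratio of 1.47 (1.44 to 1.49) there, above the 1.00 of Plscr2, and the part of EC content in these ratios was not tested. Meis2 had 0 UMIs in the 84 TECs with at least 3 of the other 6 genes, which allows up to 1.71 CPM, and 39 UMIs (5.91 CPM) in the other 228. Of the 30 leading NEC genes, 23 were listed for TECs, and 4 of these had an interval above 1-fold, Tmem26, Ramp3, Ubd and Ifi207. The share of all TEC genes with such an interval was not counted. Ramp3 was at 64.9 and 28.8 CPM (log2 ratio 1.17, 0.85 to 1.49), and Ramp3, Ubd (1.25) and Ifi207 (1.21) were below the pan-endothelial ratio. Ccl11, Cpxm2, Enpep, Hlf, Lrp3, Glycam1, C1qtnf2 and Mfap2 had no UMI in either set of TECs. The ungated TECs included cells with keratin RNA, and Krt8 was detected in 20.2% of them and in 1.19% of the gated TECs, and the part of such cells in the TEC ratios was not tested.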

How the data were processed

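Each library was deposited by the authors as a table of raw UMI counts per gene and cell. The submitters' processing notes name Cell Ranger, Seurat and the mm10 build, without versions. CPM were computed here from UMIs summed over cells, and shares from cells with a UMI. Each ratio carries a 95% conditional binomial interval, and no p-value was computed because each group had 1 library. NEC ECs held 17327221 UMIs. Clustering used Seurat 5.3.0 (4000 variable genes, of which 3993 remained after the gate, filter and EC genes were left out, 20 principal components, resolution 0.8) in R 4.3.3. Sums and intervals used Python 3.11.15, numpy 2.4.6 and scipy 1.17.1. Thinning drew 1900 UMIs per cell without replacement. In counts simulated for the 8550 genes of the NEC comparison, the interval held the true value for 95.4% of unchanged genes. Of genes changed 4-fold, 100% were called, and of those changed 3-fold, 99.0%. The simulated sums were Poisson, the spread that the interval assumes. They check the calculation only, and not the calls on real counts, which are uneven between cells.

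The genes named were the gate genes, the genes of the lists, the 30 with the highest ratio whose interval lay above 2-fold and the 15 with the lowest whose interval lay below the inverse. Leading genes of clusters, Hlx and Jam3 among them, were named after their values were seen. The members and lists were chosen with earlier results of these data known. Gene positions follow GENCODE M21 and promoters RefSeq, both on GRCm38. Alternatives changed the gate, the depth, the limits on cells and genes, the reference cells and doublet scores, and one that left out 3 clusters was added after seeing the data.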

Additional observations from a re-analysis of the deposited data

Results flagged for a closer look

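Lgals7, a galectin of stratified epithelium, differed in direction between the libraries. Its log2 ratio, gated over other ECs, was 2.67 in NECs and -3.25 in TECs, where it had 1 UMI in gated cells and 29 in the others. The difference was not tested. Meis2, held out of the gate, had a log2 ratio of 2.57 in NECs and 0 UMIs in the gated TECs, and this difference was not tested either. Among NEC cells with Cdh5 or Pecam1 that were removed for a UMI of a filter gene, 149 of 806 met the gate (18.5%, 15.9 to 21.3), beside 16.3% of ECs. Among Epcam cells without Cdh5 or Pecam1, 15 of 698 met it (2.15%).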

How the results depend on the processing

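No paired analysis was possible because each condition had 1 library, and no replicate could be left out. The share of gated ECs, 16.3%, was 28.3% with a gate of at least 2 genes, 8.36% with at least 4, 9.21% in thinned cells and 20.6% with a mitochondrial limit of 5%. The 171 genes called higher became 353 against cells with no gate gene and 304 without a minimum level, and the 346 called lower became 536 with the gate on thinned cells and 669 without a minimum level. With a gate of at least 4 genes, the high endothelial venule list turned to -0.34, the lymphatic list to -0.98, Lgals7 to -1.75, Bpifb5 to -1.83, Glycam1 to -0.33, Serpina1b to -0.17 and Oit1 to -0.53. With the gate on thinned cells, these lists were at -3.01 and -0.74, Glycam1 at -3.60, Ubd at -3.41, Serpina1b at -1.51 and Oit1 at -1.65. Lgals7 was at -1.06 with the 5% limit and -1.73 without the top Scrublet scores, and Ubd at -1.23 without the 3 clusters with the highest Glycam1, Smr3a and Col3a1. The cause was not tested. None of 70 values for the 7 held-out gate genes reversed. Without those 3 clusters (250 cells, 41 of them gated), 172 genes were called higher and 365 lower. Depth limits the gate, which 1.98% of ECs of 500 to 1000 UMIs met.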

Other observations

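Of 72 list genes called in NECs, other than the leading genes, 27 had the opposite sign in TECs, with and without a Cdh5 UMI required, and 14 the same sign, each with an interval that excluded 1. The share of all TEC genes with such intervals was not counted, so these counts have no reference. The pan-endothelial list itself was at 10332 CPM in gated TECs and 3734 CPM in the others. Among fenestrated genes, Plvap was at 1582 and 567 CPM in gated and other TECs, and Esm1 at 353 and 111 CPM.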
